A study of Mus musculus with 15 samples.

Results

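The genes described here are 34 markers of the non-parenchymal cells of the liver, read in whole livers of newborn mice that lacked the miR-379/miR-410 cluster and of their wild-type littermates. They fall into 3 classes: 12 endothelial, 12 Kupffer cell and 10 stellate cell markers. The members were all non-control probes carrying one of the 34 gene names, which gave 41 of the 55681 probes on the array, and the brightest probe stood for a gene that had several. All 34 passed the filter on dim probes and were tested among 27554 genes or single-probe transcripts. Of these, 33 were well above background on all 15 arrays, and Cd163 on 12.

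Sinusoidal endothelial cells line the capillaries of the liver with a fenestrated wall and take up waste macromolecules from blood through scavenger receptors. Kupffer cells are the resident macrophages of the sinusoids, seeded before birth, which clear particles, dying cells and old erythrocytes. Stellate cells lie between endothelium and hepatocytes, store vitamin A as retinyl esters and, with portal fibroblasts, produce the fibrillar collagen matrix. In the days around birth these cells share the liver with hepatocytes and with blood-forming cells.

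Livers were taken on postnatal day 1 from pups on a C57BL/6J background. The KO pups lacked this cluster, a group of imprinted microRNA genes, on the chromosome inherited from the mother, and the deletion was present in all cells of the body. They formed a hypoglycaemic KO group (n = 7), called severely hypoglycaemic in the design text, and a normoglycaemic KO group (n = 3), called mildly hypoglycaemic there. Wild-type littermates (n = 5) served as the controls of both. Blood glucose was 9 to 33 mg/dl with a median of 16 mg/dl in hypoglycaemic KO pups, and 44, 56 and 44 mg/dl in normoglycaemic KO pups. It was 51, 72, 50, 55 and 65 mg/dl in wild-type pups. Each pup gave 1 single-colour Agilent array.

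The arrays lay on 2 slides that each held all 3 groups: hypoglycaemic KO replicates 1 to 4, normoglycaemic KO replicates 1 and 2 and wild-type replicates 1 and 2 were on slide 1, and the others on slide 2. Between 57.9% and 76.2% of the spots of an array were well above background. Mirg, a non-coding RNA of the deleted domain, went against 1 label. In the library labelled hypoglycaemic KO replicate 2 it stood at 0.88, against -2.79 to -0.99 in the other 6 hypoglycaemic KO libraries, -2.55 to -2.45 in normoglycaemic KO and 1.13 to 1.84 in wild-type libraries. Transcripts of acinar pancreas were richest in normoglycaemic KO replicate 2, hypoglycaemic KO replicate 3 and wild-type replicate 2, with a mean marker level of 5.57, 2.52 and 2.49. Results below are given without these libraries where that changed a call, or moved a class median or one of the 6 markers with the smallest p by over 1.5 times, in the comparisons of hypoglycaemic KO livers. Markers of hepatocytes, the bulk of the tissue, had a mean level of 8.53 to 8.73 in hypoglycaemic KO, 8.67 to 8.75 in normoglycaemic KO and 8.51 to 8.88 in wild-type livers. Ddx3y, a gene of the Y chromosome, was high in hypoglycaemic KO replicates 1 and 2, normoglycaemic KO replicates 1 and 3 and wild-type replicate 3 (2.10 to 2.55). It was -7.68 to -4.92 in the other livers. Sex was thus spread unevenly over the groups, and its part in the differences was not tested.

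All levels are base-2 logarithms of a probe's signal over the 75th percentile of its array, and a difference of 1 is a doubling. Levels of different probes are not compared. The 60-base probes of the 6 markers with the smallest p between hypoglycaemic KO and wild-type livers are shown by their first 30 bases, because each value rests on 1 such probe. Positions are those of the deposited mm9 annotation for the whole probe.
Lrat (chr3:82696805-82696864, minus strand): ggcgttgattactgcaaaataaattaactt
Timd4 (chr11:46657173-46657232, plus strand): acttcttttcacattcaagtttctttaaag
Pecam1 (chr11:106540864-106540923, minus strand): ccccagaacatggatgtagaatacacagaa
Lyve1 (chr7:117994171-117994230, minus strand): cactttgtgtgcctttaacaaatacattat
Cd163 (chr6:124270436-124270495, plus strand): tgttttacaatggtacatggggcagtattg
Emr1 (chr17:57622868-57622927, plus strand): ggtgttccagaaattctcatttaataccca

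No marker passed the test in hypoglycaemic KO against wild-type livers. By limma with Benjamini-Hochberg adjustment over all genes, 0 of 34 markers had an adjusted p under 0.05, where 0.0181% of all genes did, and the smallest adjusted p was 0.07 for Lrat. At an unadjusted p under 0.05 there were 5 markers higher and 4 lower, against a background of 9.45% of all genes higher and 9.2% lower. The higher ones were Pecam1, Lyve1, Oit3, Stab1 and Cd163, and the lower ones were Lrat, Timd4, Emr1 and Cd68. Only Pecam1 had all hypoglycaemic KO values above all wild-type values, which 0.7% of all genes showed. No marker had all of them below, which 0.798% showed. The median difference was 0.16 over the endothelial, -0.12 over the Kupffer cell and -0.10 over the stellate cell markers, beside 0.01 over all genes. The stellate median was -0.02 without the 3 libraries richest in pancreas transcripts, and -0.23 within slide 1 and 0.07 within slide 2. In whole tissue, fewer cells of a type and less RNA per cell cannot be told apart.

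**Figure D1:**
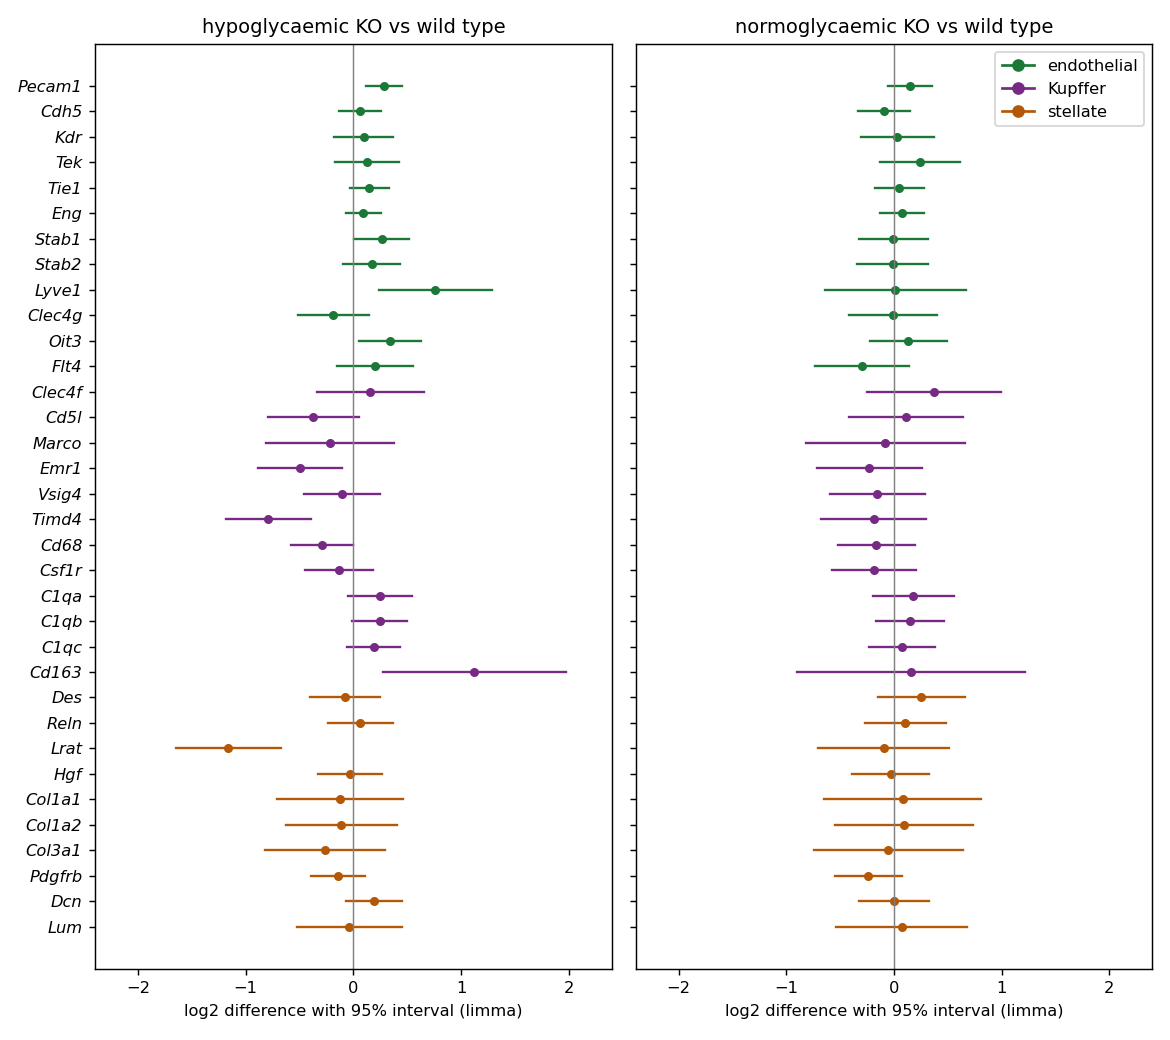
Difference of each of the 34 markers from wild type on the log2 scale (horizontal axis) with its 95% interval from limma, for hypoglycaemic KO (left, n = 7 against 5) and normoglycaemic KO (right, n = 3 against 5) livers. In the left panel 11 of 12 endothelial markers lie right of 0 and Lrat lies farthest to the left, and in the right panel the intervals of all 34 markers cross 0.

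The endothelial class was the one with most members on one side: 11 of 12 differences were above 0 in hypoglycaemic KO, the exception being Clec4g at -0.19 (SE 0.15). Of all 27554 genes, 14369 were above 0 and 13185 below. Markers of this class varied together between livers of a group, as given below, so the 12 are not separate observations. Markers of some other cells also leaned one way in this comparison. Of 8 granulocyte markers 6 were above 0 with a median of 0.15. At an unadjusted p under 0.05, 3 were higher (Mpo, Prtn3 and Ngp), beside 9.45% of all genes. By limma 0 of the 8 passed, with a smallest adjusted p of 0.11. The summed linear signal of the 8 ran from 833 to 1002 in hypoglycaemic KO, 736 to 987 in normoglycaemic KO and 824 to 913 in wild-type livers. All 4 markers of NK and T cells were below 0 with a median of -0.84, and Gzmb, a cytotoxic granule protease, fell by 1.12 (limma adjusted p = 0.042). Their summed signal was 3.24 to 4.05 in hypoglycaemic KO, 3.93 to 4.44 in normoglycaemic KO and 4.39 to 5.08 in wild-type livers. The part of these cells in the differences of the endothelial markers was not tested.

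Pecam1, an adhesion molecule at the junctions of all endothelial cells, had a lowest level of -0.62, a median of -0.55 and a highest of -0.20 in hypoglycaemic KO livers. It stood at -0.68, -0.51 and -0.67 in normoglycaemic KO livers and at -0.74, -0.69, -0.72, -0.79 and -0.89 in wild-type livers. All 7 hypoglycaemic KO values, and all 3 normoglycaemic KO values, were above the highest wild-type value. The difference from wild type was nevertheless small, 0.29 in hypoglycaemic KO (95% interval 0.12 to 0.45), a 1.22-fold level with an adjusted p of 0.10 by limma.

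Lyve1, a hyaluronan receptor of sinusoidal and lymphatic endothelium, ran from 3.36 over a median of 3.84 to 4.29 in hypoglycaemic KO livers. Its levels were 3.50, 2.91 and 2.92 in normoglycaemic KO and 3.84, 2.25, 3.37, 3.04 and 2.99 in wild-type livers. The groups overlapped: wild-type replicate 1 stood among the hypoglycaemic KO livers and wild-type replicate 3 just above the lowest of them, while wild-type replicate 2 was the lowest of all. The difference from wild type was 0.76 (95% interval 0.24 to 1.29), a 1.70-fold level, with a limma adjusted p of 0.14. The adjusted p became 0.049 without wild-type replicate 1, in a fit where 788 of all genes passed, against 5 with all libraries.

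Oit3, Stab1 and Stab2 had smaller differences of the same sign. Oit3, a secreted protein made by sinusoidal endothelium, averaged 3.39 ± 0.22 in hypoglycaemic KO, 3.18 ± 0.21 in normoglycaemic KO and 3.04 ± 0.26 in wild-type livers (SD, n = 7, 3 and 5), a difference from wild type of 0.34 in hypoglycaemic KO (limma adjusted p = 0.19). Stab1, a stabilin that clears modified lipoproteins and matrix fragments, averaged 4.10 ± 0.19 in hypoglycaemic KO, 3.83 ± 0.19 in normoglycaemic KO and 3.84 ± 0.22 in wild-type livers, with a difference of 0.26 (limma adjusted p = 0.25). Its relative Stab2, the main hyaluronan clearance receptor, differed by 0.17 (limma adjusted p = 0.48), and its other probes by 0.38 and 0.17. Clec4g, a sinusoidal lectin, varied among the hypoglycaemic KO livers from 3.62 to 4.68, and this range contained all 8 other values.

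Receptors of the growth factor pathways that shape vessels differed little. The VEGF receptor Kdr had a difference of 0.10 from wild type in hypoglycaemic KO livers, and -0.08 by its second probe. Flt4, the receptor of the lymphangiogenic VEGF-C, differed by 0.20, the angiopoietin receptor Tek by 0.12 and its partner Tie1 by 0.15. Eng, a co-receptor of the BMP and TGF-beta family, differed by 0.09 and the endothelial cadherin Cdh5 by 0.06. The limma adjusted p of these 6 genes lay between 0.36 and 0.74.

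**Figure D2:**
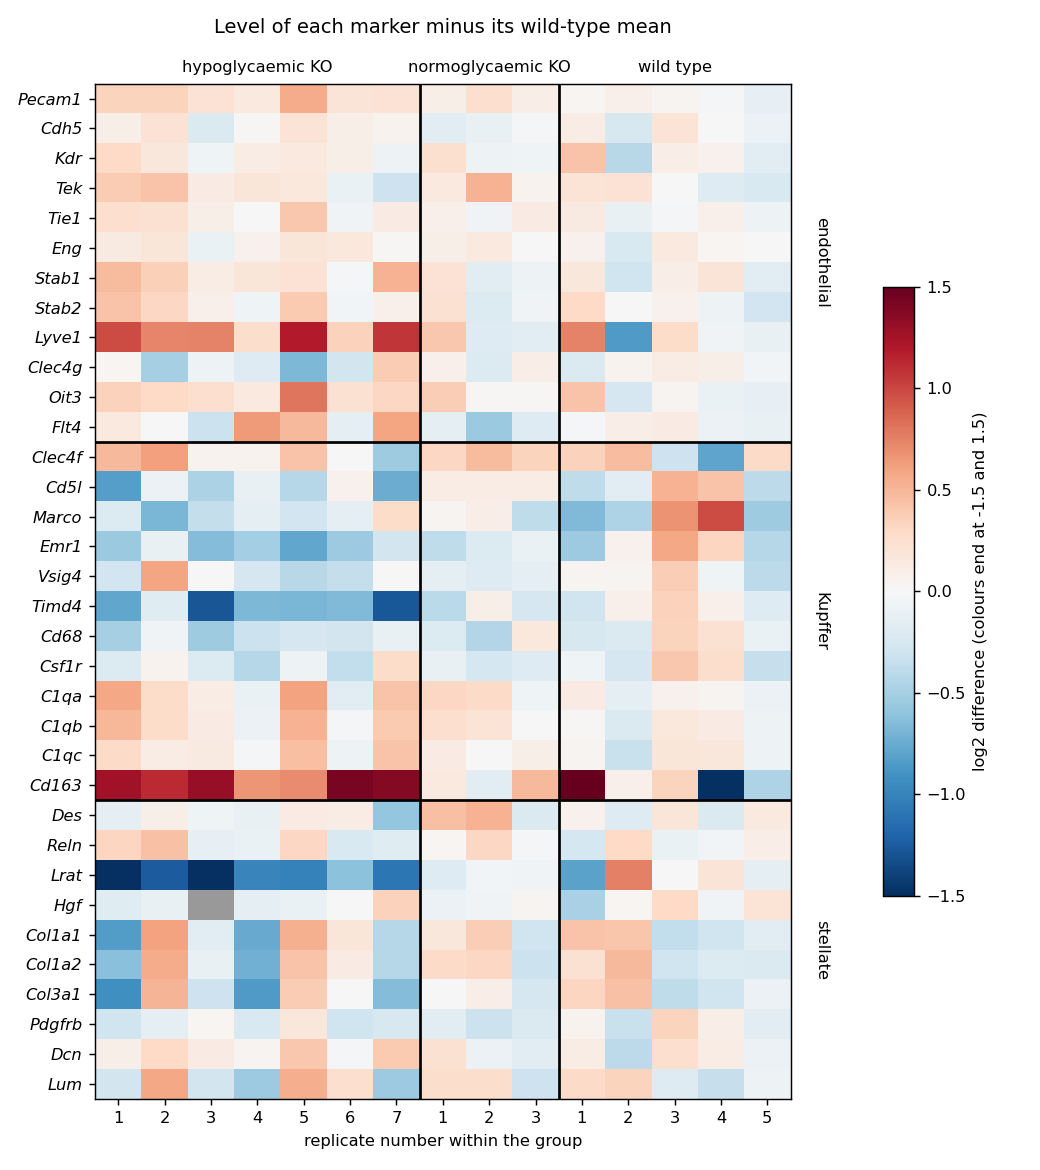
Level of each marker in each library minus the mean of the wild-type livers for that marker (colour, log2 units), with 34 markers in rows by class and 15 libraries in columns by group; grey marks the 1 missing value, Hgf in hypoglycaemic KO replicate 3. Lyve1 and Cd163 are above the wild-type mean and Lrat below it in all 7 hypoglycaemic KO libraries, and the collagens are low together in hypoglycaemic KO replicates 1, 4 and 7.

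Kupffer cell markers did not lean one way: 5 of 12 differences from wild type were above 0 and 7 below in hypoglycaemic KO livers. Timd4, a receptor for phosphatidylserine by which resident macrophages bind dying cells, ran from -1.07 over a median of -0.47 to 0.03 in hypoglycaemic KO livers. Levels were -0.19, 0.30 and -0.05 in normoglycaemic KO and -0.09, 0.28, 0.55, 0.28 and 0.01 in wild-type livers. Of the hypoglycaemic KO livers, 6 were below every other liver, and the one among the wild-type values was the library labelled replicate 2. The difference from wild type was -0.79 (95% interval -1.18 to -0.40), a level 1.73-fold lower with a limma adjusted p of 0.09. Without the library labelled hypoglycaemic KO replicate 2 it was -0.89 with an adjusted p of 0.034. In that fit 166 of all genes passed, against 5 with all libraries.

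Emr1, which encodes an adhesion-type receptor used as a general surface marker of mouse macrophages, ran from 1.90 over a median of 2.13 to 2.57 in hypoglycaemic KO livers. It was 2.31, 2.48 and 2.58 in normoglycaemic KO livers and 2.14, 2.75, 3.26, 3.01 and 2.25 in wild-type livers. The wild-type livers were spread widely, with replicates 1 and 5 inside the hypoglycaemic KO range. The difference was -0.49 (SE 0.18, limma adjusted p = 0.17), and -0.47 by the second probe; it was -0.22 within slide 1 and -0.69 within slide 2. Cd68, an endosomal glycoprotein of macrophages, averaged 2.82 ± 0.18 in hypoglycaemic KO, 2.95 ± 0.30 in normoglycaemic KO and 3.11 ± 0.26 in wild-type livers, with a difference of -0.29 in hypoglycaemic KO against wild type (limma adjusted p = 0.26), and of -0.11 by its second probe.

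Cd163, the haemoglobin-haptoglobin scavenger receptor, was the member with the widest spread. It ran from -4.31 over a median of -3.71 to -3.54 in hypoglycaemic KO livers. Levels were -4.83, -5.13 and -4.48 in normoglycaemic KO livers and -3.34, -4.90, -4.63, -6.54 and -5.43 in wild-type livers. It was well above background on all 7 hypoglycaemic KO and all 3 normoglycaemic KO arrays but on 2 of 5 wild-type arrays, so the dimmer wild-type values are poorly measured. Wild-type replicate 1 was the highest of all 15 libraries, above every hypoglycaemic KO liver. The fitted difference was 1.12 (95% interval 0.27 to 1.97, limma adjusted p = 0.16). Without wild-type replicate 1 it was 1.53 (adjusted p = 0.037), in a fit where 788 of all genes passed, against 5 with all libraries. Within slide 1 it was 0.24, within slide 2 it was 1.74, and with another background correction (normexp) it was 0.28.

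C1qa, C1qb and C1qc encode the chains of C1q, which starts the classical complement pathway and is made in liver by macrophages. They had differences of 0.25, 0.24 and 0.19 from wild type in hypoglycaemic KO livers, with limma adjusted p of 0.36, 0.29 and 0.40. The scavenger receptors and lectins went both ways: Cd5l, a secreted protein of tissue macrophages, differed by -0.37 (limma adjusted p = 0.33), the bacterial scavenger receptor Marco by -0.22, the complement receptor Vsig4 by -0.11 and the galactose lectin Clec4f by 0.16. Csf1r, the receptor on which macrophage survival depends, differed by -0.14, and by -0.05 and 0.06 with its other probes. Wild-type replicates 3 and 4 were the 2 highest libraries for Marco, at 7.70 and 8.00, and Cd5l, at 6.53 and 6.44, while the other wild-type livers lay between 6.36 and 6.57 for Marco and between 5.62 and 5.84 for Cd5l.

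**Figure D3:**
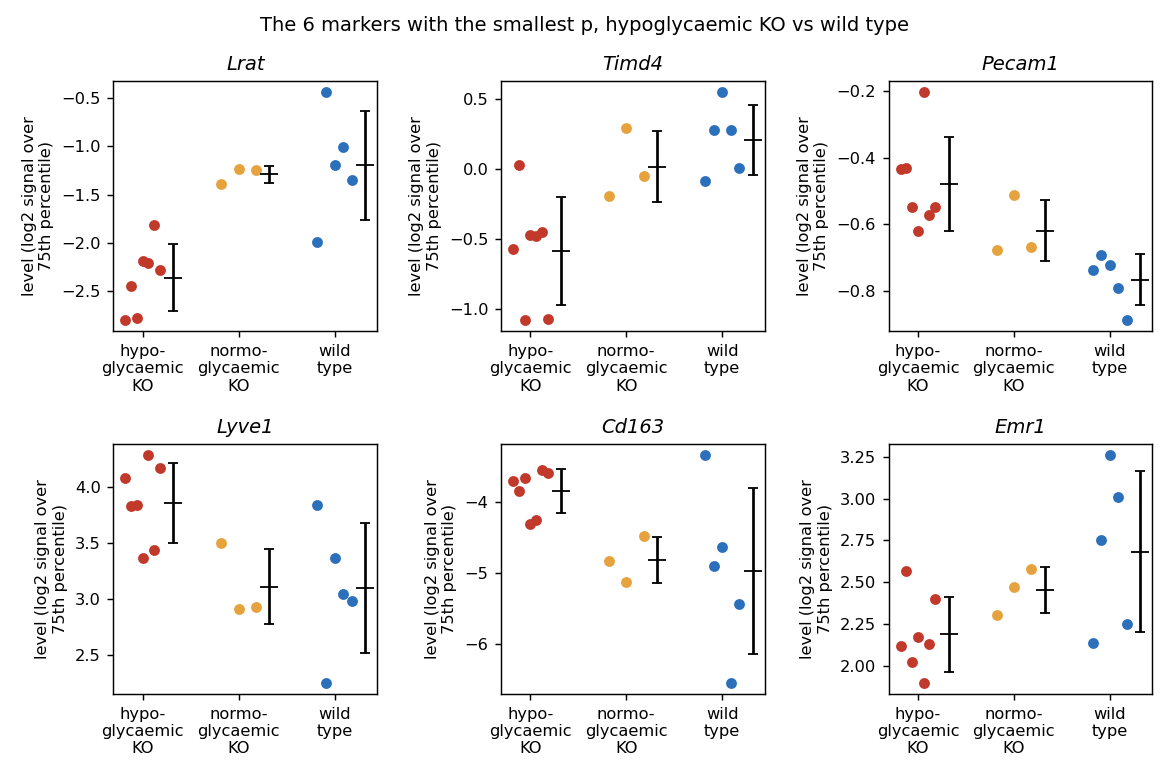
Level of the 6 markers with the smallest p in hypoglycaemic KO against wild type (vertical axis, log2 signal over the 75th percentile of the array, a separate scale per gene), with 1 point per liver, the mean as a dash and the SD as a bar. Hypoglycaemic KO and wild-type points overlap for Lrat, Timd4, Lyve1, Cd163 and Emr1 and are apart for Pecam1.

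Among the stellate cell markers Lrat stood apart in size from the rest. It encodes lecithin retinol acyltransferase, the enzyme that makes the retinyl esters stored in these cells. Its level was between -2.79 and -1.81 with a median of -2.28 in hypoglycaemic KO livers. It was -1.39, -1.23 and -1.25 in normoglycaemic KO and -1.99, -0.44, -1.19, -1.01 and -1.34 in wild-type livers. All hypoglycaemic KO livers lay below all normoglycaemic KO livers, and 1 of them, replicate 6 at -1.81, lay above the lowest wild-type liver. The difference from wild type was -1.16 (95% interval -1.65 to -0.68), a level 2.24-fold lower, with a limma adjusted p of 0.07. It was -1.33 within slide 1 and -0.92 within slide 2, and -0.91 without the 3 libraries richest in pancreas transcripts (adjusted p = 0.30). With the authors' deposited log2 values it was -1.04 (adjusted p = 0.049), and without wild-type replicate 1 it was -1.36 (adjusted p = 0.030). These fits called 50 and 788 of all genes, against 5 in the main fit.

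The other 9 stellate markers had differences between -0.26 and 0.19 in hypoglycaemic KO against wild-type livers. Desmin (Des), an intermediate filament, differed by -0.08, the matrix glycoprotein gene Reln by 0.06 and the hepatocyte growth factor gene Hgf by -0.03, the last fitted without hypoglycaemic KO replicate 3, whose value was missing. Pdgfrb, the receptor that drives stellate cell proliferation, differed by -0.14. The small proteoglycans decorin (Dcn) and lumican (Lum), which bind collagen fibrils, differed by 0.19 and -0.04.

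The fibrillar collagen genes Col1a1, Col1a2 and Col3a1 differed by -0.12, -0.11 and -0.26 from wild type in hypoglycaemic KO livers, with limma adjusted p of 0.84, 0.84 and 0.62. Their hypoglycaemic KO values spread widely, from 2.89 to 4.33 for Col1a1, 4.40 to 5.68 for Col1a2 and 3.04 to 4.46 for Col3a1. Replicates 1, 4 and 7 were the lowest and the library labelled replicate 2 and replicate 5 the highest for each gene. Wild-type values ran from 3.36 to 4.16, from 4.82 to 5.60 and from 3.58 to 4.40. Within slide 1 the differences were -0.71, -0.58 and -0.78, and within slide 2 that of Col1a1 was 0.37. Markers of smooth muscle (4 of 4 well above background on all arrays) had a mean level of -1.32, -1.52 and -0.04 in hypoglycaemic KO replicates 1, 4 and 7, against 1.08, 0.30, 0.44 and 0.15 in replicates 2, 3, 5 and 6; their part in the spread of the collagens was not tested.

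In normoglycaemic KO livers (n = 3) the differences of the markers from wild type ran from -0.30 (Flt4) to 0.37 (Clec4f, SE 0.29). By limma 0 of 34 markers passed, where 0% of all genes did, and at an unadjusted p under 0.05 there were 0 higher and 0 lower, against 3.29% and 1.56% of all genes. The smallest adjusted p was 0.96. Pecam1 had all 3 values above all 5 wild-type values, as did 2.62% of all genes, with a difference of 0.15 (SE 0.10). Flt4 had all 3 below, as did 1.42%, with -1.85, -2.26 and -1.89 in normoglycaemic KO livers, against -1.72, -1.60, -1.58, -1.79 and -1.82 in wild-type livers. Its difference was -0.30 (SE 0.20). Lrat differed by -0.09 (-0.70 to 0.51), Lyve1 by 0.01 (-0.64 to 0.67) and Timd4 by -0.19 (-0.68 to 0.30) (95% intervals). The 95% intervals of hypoglycaemic KO given above for these 3 genes overlapped these intervals, and both sets of differences share the wild-type livers. A difference between the 2 KO groups for these genes did not pass its own test, given next. Class medians were 0.02 for endothelial, 0.00 for Kupffer and 0.03 for stellate markers, beside 0.02 over all genes.

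Setting hypoglycaemic against normoglycaemic KO livers compared pups labelled with the same deletion that differed in blood glucose, although Mirg went against that label in 1 of the 7 hypoglycaemic KO libraries. Again 0 of 34 markers passed by limma, where 0.0508% of all genes did. At an unadjusted p under 0.05 there were 2 higher, Lyve1 and Flt4, and 2 lower, Lrat and Timd4, against 8.65% and 10.6% of all genes. Cd163 had all hypoglycaemic KO values above all normoglycaemic KO values, as did 4.41% of all genes. Lrat and Cd5l had all of them below, as did 4.39%. Lrat differed by -1.07 (95% interval -1.64 to -0.49, limma adjusted p = 0.09), Timd4 by -0.60 (adjusted p = 0.16), Lyve1 by 0.75 (adjusted p = 0.18) and Flt4 by 0.49 (adjusted p = 0.18). Cd5l lay between 5.18 and 6.08 with a median of 5.59 in hypoglycaemic KO livers and at 6.12, 6.12 and 6.12 in normoglycaemic KO livers, a difference of -0.48 (limma adjusted p = 0.28). The difference of Timd4 was -0.38 with the 3 libraries richest in pancreas transcripts left out. Median differences were 0.15, -0.04 and -0.16 for the endothelial, Kupffer and stellate classes and -0.02 for all genes. Without the same 3 libraries the Kupffer and stellate medians were 0.00 and -0.03, and without the library labelled hypoglycaemic KO replicate 2 they were -0.06 and -0.26. This comparison shares the hypoglycaemic KO libraries with the first and the normoglycaemic KO libraries with the second, so the 3 are not independent of each other.

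Blood glucose was related to the markers by a common slope within the 3 groups, since the KO pups had been sorted by glucose. By limma 0 of 34 slopes passed, where 0% of all genes did. At an unadjusted p under 0.05 there was 1 marker higher with higher glucose, Lrat, and 8 lower, against 8.13% and 9.91% of all genes. The counts moved both ways when libraries were left out. They were 0 and 3 without wild-type replicate 2, and 1 and 5 without hypoglycaemic KO replicate 4 or without hypoglycaemic KO replicate 6. Without the 3 pancreas-rich libraries they were 0 and 6. They rose to 1 and 12 without hypoglycaemic KO replicate 7 and to 1 and 11 without hypoglycaemic KO replicate 3. Without normoglycaemic KO replicate 3 they were 1 and 10. The share of all genes at this threshold was not taken in the fits with libraries left out. These moves therefore cannot be set apart from moves of all genes. By limma 981 of all genes had an adjusted p under 0.05 without hypoglycaemic KO replicate 7, against 0 with all libraries. With all libraries the 8 were the endothelial genes Lyve1, Stab2, Kdr, Tie1 and Oit3, the complement genes C1qb and C1qc, and Pdgfrb. Per 10 mg/dl of glucose the level of Lyve1 changed by -0.34 (95% interval -0.56 to -0.12, limma adjusted p = 0.11), of Stab2 by -0.16 (adjusted p = 0.13) and of Lrat by 0.29 (0.08 to 0.51, adjusted p = 0.14). Of the endothelial slopes, 10 of 12 were below 0, with a median of -0.09, and of the Kupffer slopes 10 of 12, with a median of -0.06. The stellate median was 0.00 and that of all genes -0.02, with 15388 of all 27554 slopes below 0. Within slide 2 the slope of Lrat was -0.04, against 0.41 within slide 1, and that of Lyve1 was -0.24, against -0.47 within slide 1.

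**Figure D4:**
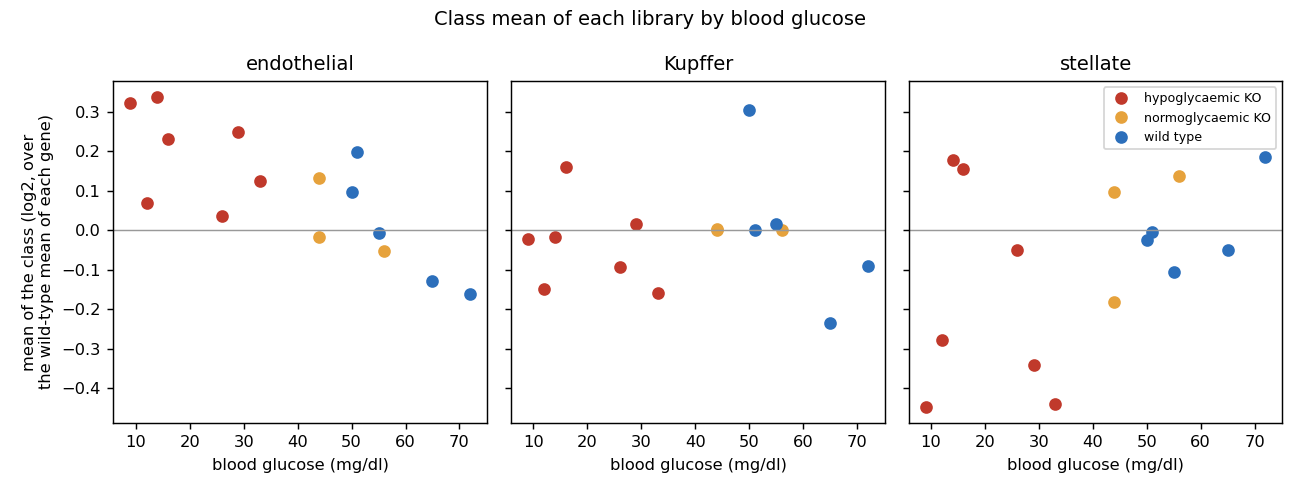
Mean over the markers of each class in each library, after subtracting the wild-type mean of each gene (vertical axis, log2 units), by blood glucose in mg/dl (horizontal axis), with 1 point per pup coloured by group. The endothelial means run from 0.04 to 0.34 in hypoglycaemic KO and from -0.16 to 0.20 in wild-type pups, where the 2 lowest endothelial means, and the 2 lowest Kupffer means, belong to the pups at 65 and 72 mg/dl; the highest stellate mean of the wild-type pups belongs to the one at 72 mg/dl.

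Without a group term, over all 15 pups, 9 markers passed the test of a slope on glucose by limma: 2 were higher with higher glucose, against 8.23% of all genes, and 7 lower, against 8.46%. Lrat rose by 0.31 per 10 mg/dl (adjusted p = 0.0018) and Timd4 by 0.17 (adjusted p = 0.019). Lyve1 fell by 0.23 (adjusted p = 0.0045), Oit3 by 0.10 (adjusted p = 0.020), Pecam1 by 0.06 (adjusted p = 0.019), Stab1 by 0.08, Cd163 by 0.28, C1qb by 0.07 and Tie1 by 0.05. Lrat, Timd4, Lyve1 and Pecam1 passed whichever single library was left out. The number of markers passing was 9 of 34 with all libraries, where 16.7% of all genes passed. It was 5 without the library labelled hypoglycaemic KO replicate 2, where 15.4% of all genes did. It was 5 without hypoglycaemic KO replicate 1, where 9.27% did. Without wild-type replicate 2 it was 4, where 9.39% did, and without wild-type replicate 5 it was 5, where 13.9% did. It was 2 (Lrat and Pecam1) with the 3 pancreas-rich libraries left out, where 2.12% of all genes passed, and 0 within either slide, where 0% did. In this fit glucose and the sorting of the pups into groups cannot be told apart. The slope of Timd4 within groups was 0.01 per 10 mg/dl (95% interval -0.22 to 0.23).

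**Figure D5:**
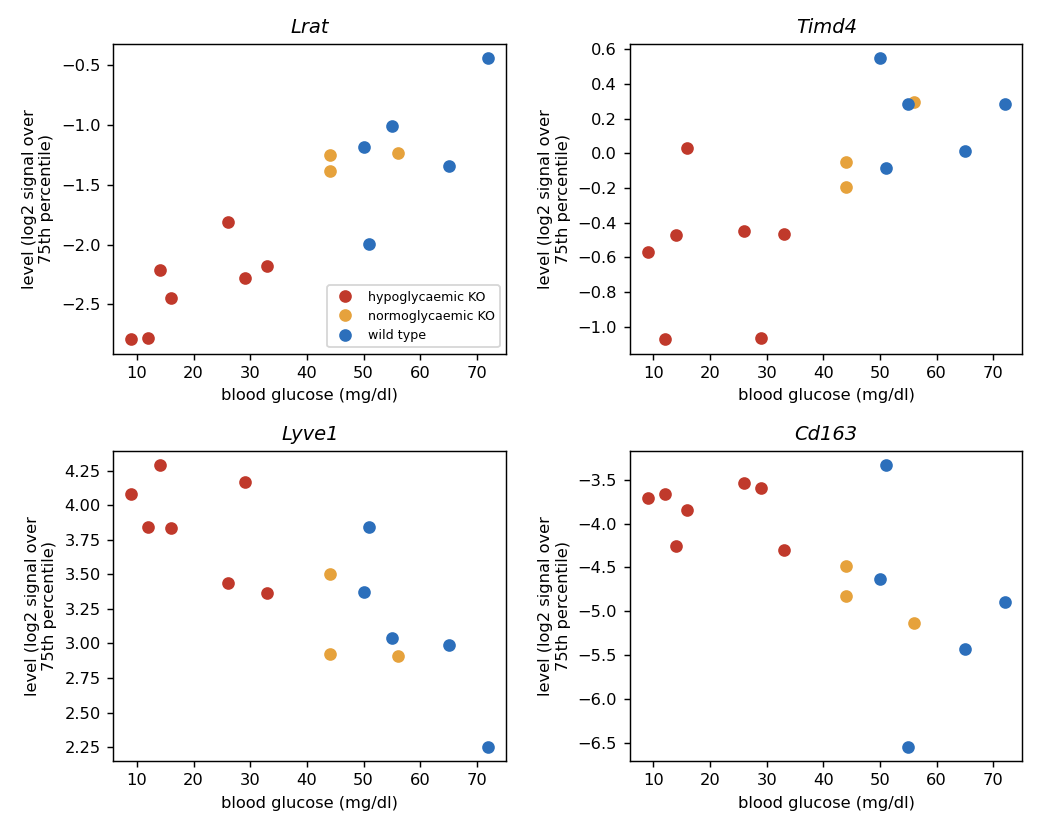
Level of Lrat, Timd4, Lyve1 and Cd163 (vertical axis, log2 signal over the 75th percentile of the array) by blood glucose in mg/dl (horizontal axis), with 1 point per pup coloured by group. Lrat and Timd4 are mostly lowest and Lyve1 and Cd163 mostly highest in the hypoglycaemic KO pups at 9 to 33 mg/dl, and wild-type replicate 1, at 51 mg/dl, lies with the hypoglycaemic KO pups for Lyve1 and Cd163.

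Variation among livers of a group was shared unequally within the classes. After group means were removed, the mean correlation between 2 markers over the 15 libraries was 0.30 within the endothelial, 0.17 within the Kupffer and 0.21 within the stellate class, beside 0.011 between any 2 genes tested. These are descriptions, since all markers of a library share its RNA preparation and array. The 3 collagens followed each other most closely, at 0.97 to 0.98. The C1q chains followed at 0.76 to 0.95, and Stab1, Stab2 and Lyve1 at 0.59 to 0.75; these sets were put together after the values were seen. Each C1q chain correlated more with the endothelial class (0.43 to 0.47 on average) than with the other Kupffer markers (0.18 to 0.26), and Clec4g (-0.23) and Clec4f (-0.23) ran against their own classes. The SD within groups was largest for Cd163 (0.72), Marco (0.50) and Col1a1 (0.49) and smallest for Eng (0.11) and Pecam1 (0.11), beside a median of 0.25 over all genes.

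The promoters of 2 C1q and 2 collagen genes are shown because these sets varied together most closely, as the 250 bases before the gene start from RefSeq (GRCm38.p6), which listed 23 of the 34 markers. Capitals mark the letters searched on both strands: GAGGAA, the core bound by the macrophage factor PU.1, or its reverse complement in the C1q promoters, and CCAAT, the box bound by NF-Y, in the collagen promoters.
C1qb (chr4:136886201-136886450, minus strand): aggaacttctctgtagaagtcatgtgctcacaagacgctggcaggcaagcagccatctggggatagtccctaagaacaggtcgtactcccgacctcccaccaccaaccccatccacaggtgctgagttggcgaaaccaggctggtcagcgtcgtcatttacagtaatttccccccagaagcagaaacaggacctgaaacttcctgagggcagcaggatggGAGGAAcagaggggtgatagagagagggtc
C1qc (chr4:136892915-136893164, minus strand): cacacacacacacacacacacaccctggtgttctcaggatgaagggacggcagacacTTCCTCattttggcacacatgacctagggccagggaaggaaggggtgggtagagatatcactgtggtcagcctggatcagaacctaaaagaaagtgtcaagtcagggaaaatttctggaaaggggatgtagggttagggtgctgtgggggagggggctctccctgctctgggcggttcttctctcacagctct
Col1a2 (chr6:4505368-4505617, plus strand): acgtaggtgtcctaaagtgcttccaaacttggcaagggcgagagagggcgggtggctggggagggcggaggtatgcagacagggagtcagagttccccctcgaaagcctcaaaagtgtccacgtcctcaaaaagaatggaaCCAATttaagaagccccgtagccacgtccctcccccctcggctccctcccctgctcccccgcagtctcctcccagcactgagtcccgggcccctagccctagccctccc
Col3a1 (chr1:45311288-45311537, plus strand): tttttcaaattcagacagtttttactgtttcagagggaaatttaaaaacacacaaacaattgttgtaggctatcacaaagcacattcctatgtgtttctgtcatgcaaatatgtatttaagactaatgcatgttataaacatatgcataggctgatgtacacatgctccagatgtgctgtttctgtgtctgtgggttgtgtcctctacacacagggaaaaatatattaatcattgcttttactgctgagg
GAGGAA began at -30 from the gene start of C1qb and, as its reverse complement, at -193 from that of C1qc, and 23.3% of the 32851 promoter windows of that length held it. CCAAT began at -109 from the start of Col1a2 and was not among the letters of the Col3a1 window, where 33.8% of all windows held it.

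Other genes of the same cells were read from 4 lists, and 0 of their members passed in any of the 4 comparisons by limma. In hypoglycaemic KO against wild type at an unadjusted p under 0.05, 3 of 18 genes of endothelial signalling were higher and 2 lower, and for this list and the 3 others the share over all genes was 9.45% higher and 9.2% lower. Esm1, a VEGF-induced tip cell proteoglycan, averaged 1.83 ± 0.51 in hypoglycaemic KO, 0.95 ± 1.08 in normoglycaemic KO and 0.63 ± 1.12 in wild-type livers, a difference from wild type of 1.20 in hypoglycaemic KO (limma adjusted p = 0.19). Notch4, an endothelial Notch receptor, differed by 0.51 (adjusted p = 0.13), while the Notch ligand Jag1 and the apelin receptor Aplnr each differed by -0.43 (adjusted p = 0.17 and 0.12).

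Of 24 genes of endothelial identity and secreted signals, 4 were higher and 1 lower at an unadjusted p under 0.05, beside 9.45% and 9.2% of all genes. Mrc1, the mannose receptor of sinusoidal endothelium and macrophages, differed by 0.60 (limma adjusted p = 0.12) and Bmp2, by which endothelium instructs hepatocytes in iron control, by 0.44 (adjusted p = 0.17). Plvap, a diaphragm protein of capillary pores, differed by -0.22 and the sinusoidal factor Gata4 by -0.22. Median differences of both endothelial lists were 0.07 and 0.04, below the 0.16 of the endothelial markers.

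Of 23 genes of macrophage growth, regulation and function, 0 were higher and 5 lower at an unadjusted p under 0.05, beside the same 9.45% and 9.2%. Fcgr1, a high-affinity IgG receptor, differed by -0.70 (limma adjusted p = 0.12) and the macrophage activation marker Aif1 by -0.67 (adjusted p = 0.14). Cd14, the co-receptor for endotoxin, had the largest difference of the list, 1.46 (SE 0.75), but an adjusted p of 0.31. The lysosomal protease gene Ctss differed by 0.22.

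Of 33 tested genes among 34 of stellate regulation and matrix, 3 were higher and 5 lower at an unadjusted p under 0.05, again beside 9.45% and 9.2% of all genes. Ngfr, the neurotrophin receptor of stellate cells, averaged -0.96 ± 0.78 in hypoglycaemic KO, 0.55 ± 0.29 in normoglycaemic KO and 0.56 ± 0.52 in wild-type livers, a difference from wild type of -1.51 in hypoglycaemic KO (limma adjusted p = 0.09). The metalloprotease inhibitor gene Timp3 differed by 0.63 (adjusted p = 0.13) and the basement membrane collagen gene Col4a1 by 0.25.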

How the data were processed

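The deposited intensity values are, per the file headers, output of Agilent Feature Extraction 10.10 with background subtracted and trends removed within each array. The authors' deposited log2 values, made with limma per the submitters' processing notes, were used as an alternative. A level is log2 of the processed signal after division by the array's 75th percentile, taken over all probes but the controls. Spots marked as non-uniform were set to missing and repeated probes averaged. A probe stayed in if well above background on 3 or more of the 15 arrays (41153 probes). The 41 probes of the markers were named by the gene names in the array files. Of the other probes, 27198 were named through their transcript accession, 3577 by a gene symbol and 565 by a synonym. The remaining 24300 kept the name in the file. A model of 3 group means, and a second with a common slope on blood glucose, were fitted over 27554 genes with limma 3.58.1 in R 4.3.3, and the fits were tested on simulated data. Genes were called at an adjusted p under 0.05 (Benjamini-Hochberg, over all genes of a comparison). Folds were taken from the differences of group means. The number of arrays limits the precision.

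The markers, the lists and the alternatives were chosen with earlier results of these data known, and medians over a class are descriptions without a test. All 34 markers are named; of the other lists, the 2 genes with the smallest p in each direction, of which 1 is not reported here. The replicates were separate pups. Same-numbered normoglycaemic KO and wild-type libraries deviated together in the data (correlations of 0.23, 0.32 and 0.12), although no label says what a number shares. Libraries of these 2 groups with the same number also lay on the same slide. Those with number 2, correlated at 0.32, were both among the 3 libraries richest in pancreas transcripts. The part of these transcripts in the correlation was not tested. The main fits did not use the numbers as pairs, and a block on the number was only an alternative. Files were read with Python 3.11.15 and pandas 2.3.3 and figures drawn with matplotlib 3.10.9.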

Additional observations from a re-analysis of the deposited data

Results flagged for a closer look

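In 4 of 74 groups of values a single library lay farther from its group than Dixon's 95% limit allows, and chance gives about 5% of groups. Oit3 was 3.85 in hypoglycaemic KO replicate 5, against 3.39 in the nearest liver of the group. Vsig4 was 4.09 in the library labelled hypoglycaemic KO replicate 2, against 3.50 in the nearest. Hypoglycaemic KO replicate 7 gave the other flagged values: Des at -2.78, against -2.34 in the nearest, and Hgf at -0.93, against -1.26 in the nearest of the 6 livers measured. The causes were not tested.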

How the results depend on the processing

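Of 474 class medians and counts recomputed, 454 stayed within the spread between replicates or within 1.5 times the main count. For differences that spread, the SD of a class mean within groups, was 0.13 (endothelial), 0.14 (Kupffer) and 0.21 (stellate). Most median differences were smaller than this. A median could therefore change sign and still count as unmoved, so the 454 say little about the sign of the medians. The number of markers called in hypoglycaemic KO against wild type was 0. It was 1 with the authors' deposited log2 values and 1 with probes well above background on all 15 arrays (both Lrat). With array weights it was 3 (Pecam1, Timd4 and Lrat). Of all genes these fits called 50 of 26747, 143 of 21010 and 676 of 27554, against 5 in the main fit. Array weights gave 1 in hypoglycaemic against normoglycaemic KO (Lrat), where 1956 of all 27554 genes were called. The slope without a group term gave 9, where 4599 of all genes were called. Leaving out each replicate in turn gave 0 to 4 called markers in hypoglycaemic KO against wild type, 0 to 1 in hypoglycaemic against normoglycaemic KO and 0 to 1 for the slope. The 4 came without wild-type replicate 1 (Lyve1, Timd4, Cd163 and Lrat), where 788 of all genes were called. In the same comparison 1 came without the library labelled hypoglycaemic KO replicate 2 (Timd4), where 166 of all genes were called. Another 1 came without hypoglycaemic KO replicate 4 (Lrat), where 569 were. Between the KO groups 1 came without wild-type replicate 2 (Lrat), where 299 were. For the slope 1 came without hypoglycaemic KO replicate 7 (Lyve1), where 981 were. For the slope without a group term, alternatives chosen after seeing the data gave 4 to 11 called markers with 1 library left out. The 4 came without wild-type replicate 2, where 9.39% of all genes were called. The 11 came without hypoglycaemic KO replicate 6, where 17.1% were. These alternatives gave 2 without the 3 pancreas-rich libraries, where 2.12% were called, and 0 within slide 1 or slide 2, where 0% were. The stellate median between the KO groups was -0.42 within slide 1 and 0.13 within slide 2. With the replicate number as a block, only libraries with shared numbers remained: 10 in hypoglycaemic KO against wild type, 6 in each other group comparison and 9 for the slope. The median slopes were then -0.20 (endothelial), -0.35 (Kupffer) and -0.20 (stellate). These fits called 0 of all genes, so their 0 called markers say little about the block. Same-number correlations were 0.27, 0.18, -0.17, -0.02 and -0.12 in hypoglycaemic KO against wild type. Between the KO groups they were 0.16, 0.07 and -0.15. Among all genes 5 were called in hypoglycaemic KO against wild type, and 0 to 788 over the alternatives; 14 were called between the KO groups, and 0 to 1956; 0 were called in normoglycaemic KO against wild type, and 0 to 5; 0 slopes within groups were called, and 0 to 981, the 981 without hypoglycaemic KO replicate 7; the fit without a group term called 4599. The causes were not tested. Signals close to background limit Cd163 alone among the markers.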
